A study of Mus musculus with 12 samples.

Results

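The genes described here are 36 mouse genes for enzymes of the 2-oxoglutarate dioxygenase family, out of 54532 genes in the count files. They were chosen by symbol for their enzyme class, with earlier results of these data known. They are 3 TET genes, 16 genes for histone demethylases with a JmjC domain, 4 for small JmjC proteins, 4 for demethylases of the AlkB family, 5 for collagen hydroxylases and 4 for other protein hydroxylases. Of the 36 genes, 35 had enough counts to be tested. Plod2, a collagen lysyl hydroxylase gene, had 1 to 15 counts per library and was not tested.

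Enzymes of this family use iron and oxygen to hydroxylate DNA, RNA or protein, and in each reaction turn 2-oxoglutarate into succinate. Succinate is therefore their product, and at high concentration it can compete with 2-oxoglutarate and slow them. TET enzymes oxidise 5-methylcytosine in DNA, JmjC demethylases remove methyl groups from histone lysines, and in myeloid cells both kinds are known to act in the control of inflammatory genes. RNA abundance, which was measured here, gives the level of the transcripts and not the activity of the enzymes.

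The libraries came from mouse bone-marrow monocytes, isolated as cells positive for the integrin CD11b with a high level of Ly6C. There were 4 groups of 3 libraries: cells of control mice left unstimulated, cells of control mice after 4 h of LPS in culture, cells of mice given 300 mM succinate for 7 days left unstimulated, and cells of succinate mice after 4 h of LPS. LPS, lipopolysaccharide, is a bacterial cell-wall component that activates monocytes through TLR4. The labels give no strain, age or sex, no vehicle, no LPS dose, and do not state whether replicates are separate animals, so p-values measure the spread between these libraries, which may be technical. In these bulk samples, fewer cells of a type and less RNA per cell cannot be told apart.

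Total counts ran from 15975882 to 18306747 per library, and 14324 genes passed the filter on low counts. Tnf, an inflammatory cytokine gene that LPS induces, rose from 50.7 ± 1.76 to 449 ± 78.6 counts per 1000000 counted reads (CPM) with LPS in cells of control mice (mean ± SD, n = 3) and from 38.9 ± 10.01 to 439 ± 68.1 CPM in cells of succinate mice. Of 8 classical monocyte markers, 1 was higher and 4 were lower with LPS in each kind of mouse. Their summed level was 7797 to 8225 CPM in control, 5225 to 5633 with LPS, 5049 to 7758 in succinate and 3993 to 5623 CPM in succinate with LPS. Of 9 neutrophil and granulocyte precursor markers, 5 were higher with LPS in control mice and 4 in succinate mice, with none lower. Their summed level was 9611 to 15108 CPM in control, 15472 to 20646 with LPS, 8502 to 11595 in succinate and 17203 to 19493 CPM in succinate with LPS. Ly6g, which marks mature neutrophils, had group means of 3.87, 7.73, 4.25 and 6.46 CPM in that order. The marker lists of stroma, megakaryocytes, erythroid cells, lymphocytes (B cells apart from T and NK cells), dendritic cells and the group of eosinophils, basophils and mast cells each summed to 56.7 CPM or less in every library. Of the 5 dendritic cell markers, 3 were higher with LPS in control mice and 2 in succinate mice, and the summed level went from 10.4 to 12.4 CPM to 26.5 to 35.4 CPM in control mice. Of the 7 stroma markers 2 were tested, and Pdgfrb was higher with LPS. In succinate mice the 1 tested of 6 T and NK cell markers, Nkg7, was higher, as was 1 of the 4 tested of 5 eosinophil, basophil and mast cell markers. No marker was called among the 6 of B cells, the 3 tested of 5 of erythroid cells or the 1 tested of 4 of megakaryocytes, and no marker of any list was at 0 counts in all libraries. The part of these marker changes in the LPS results below was not tested. The libraries also fell into a pair of classes by the mean log2 CPM of S100a4, Rpl24, Rpl10-ps3, Gm14303 and Rpl35a-ps2, genes picked in earlier work on these data. This mean was 3.19 to 4.03 in 5 libraries and 0.82 to 1.46 in the other 7. The 5 were control replicates 2 and 3, succinate replicates 2 and 3, and control LPS replicate 3. All succinate LPS libraries were thus of the low class. Class and LPS are in part confounded in the reported fit, which had no term for class.

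Promoter sequence was taken from RefSeq (GRCm38.p6) for 28 of the 36 genes, as windows from 250 bases before to 50 after an annotated start, 35 windows in all. The windows of 5 genes whose RNA differed with LPS in both kinds of mice are printed 5′ to 3′ on the gene's strand, because they can be set beside the changes of these genes. Tet1, Tet2, Kdm4a and Kdm5c were higher and P4ha1 was lower. Capitals mark the AP-1 letters TGANTCA in Kdm4a and Kdm5c, and the hypoxia-response core ACGTG (here read as CACGT on the other strand) in Tet2 and P4ha1. The windows are chr10:62887275-62887574, minus strand, for Tet1, chr3:133544341-133544640, minus strand, for Tet2, chr4:118179994-118180293, minus strand, for Kdm4a, chrX:152232977-152233276, plus strand, for Kdm5c, and chr10:59323046-59323345, plus strand, for P4ha1.
Tet1: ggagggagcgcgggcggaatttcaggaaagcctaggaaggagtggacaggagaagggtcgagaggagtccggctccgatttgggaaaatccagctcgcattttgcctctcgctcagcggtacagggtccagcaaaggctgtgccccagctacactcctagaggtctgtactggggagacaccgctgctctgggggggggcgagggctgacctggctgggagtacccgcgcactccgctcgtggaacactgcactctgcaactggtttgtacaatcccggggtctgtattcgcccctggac
Tet2: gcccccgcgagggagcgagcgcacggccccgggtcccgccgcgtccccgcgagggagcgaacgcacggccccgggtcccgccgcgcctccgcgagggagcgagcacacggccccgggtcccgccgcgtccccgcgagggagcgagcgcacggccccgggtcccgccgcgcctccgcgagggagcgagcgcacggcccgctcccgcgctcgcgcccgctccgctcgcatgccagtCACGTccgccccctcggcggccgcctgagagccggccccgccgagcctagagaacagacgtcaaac
Kdm4a: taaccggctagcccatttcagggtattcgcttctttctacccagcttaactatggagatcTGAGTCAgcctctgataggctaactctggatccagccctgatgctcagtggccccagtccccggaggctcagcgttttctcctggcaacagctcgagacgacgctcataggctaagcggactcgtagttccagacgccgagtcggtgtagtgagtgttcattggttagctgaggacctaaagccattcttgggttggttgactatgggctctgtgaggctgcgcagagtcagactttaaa
Kdm5c: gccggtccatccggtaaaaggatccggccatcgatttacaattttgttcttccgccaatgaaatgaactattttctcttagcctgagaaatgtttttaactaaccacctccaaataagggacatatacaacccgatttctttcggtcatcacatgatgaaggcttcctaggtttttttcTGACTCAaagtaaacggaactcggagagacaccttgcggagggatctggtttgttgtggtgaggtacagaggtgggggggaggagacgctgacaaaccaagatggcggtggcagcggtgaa
P4ha1: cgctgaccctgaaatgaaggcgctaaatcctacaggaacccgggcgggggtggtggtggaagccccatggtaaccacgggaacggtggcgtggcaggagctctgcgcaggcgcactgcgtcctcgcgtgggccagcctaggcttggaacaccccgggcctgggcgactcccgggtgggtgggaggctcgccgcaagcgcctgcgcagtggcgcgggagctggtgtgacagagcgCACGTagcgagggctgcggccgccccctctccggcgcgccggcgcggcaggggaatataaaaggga

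Both strands of each window were searched for 4 motifs, which can overlap one another. The AP-1 letters occurred in 4 of the 35 windows, those of Kdm3a, Kdm4a and Kdm5c, and in 7.81% of all 32851 promoter windows. Kdm4a and Kdm5c rose with LPS in both kinds of mice, while Kdm3a, not printed above, fell in both. The hypoxia-response core occurred in 11 of the 35 windows, each of a different gene, and in 19.6% of all windows. The NF-kB consensus was found in 1 of the 35 windows, of Kdm2b (4.51% of all windows). The interferon response core GAAANNGAAA was found in 1, of Plod3 (3.44%). The Tet1 window held none of the 4. It starts inside the annotated gene, which runs from 62804570 to 62908996 on chromosome 10, so other Tet1 starts lie outside it. The Tet2 window also lies inside its annotated gene, from 133463679 to 133545139 on chromosome 3. The annotated 5′ end of Tet2 is outside that window. The window of Tet2 was the richest in G and C of the 5, with 81.3% and 57 CpG dinucleotides, against 47.0% and 13 for Kdm5c. A match gives the letters in the window, not a bound site.

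LPS raised 6 of the 35 tested genes and lowered 9 in cells of control mice, with edgeR's quasi-likelihood test at an adjusted p below 0.05 (Benjamini-Hochberg over all 14324 genes, as for every adjusted p below). These 15 genes are 42.9% of those tested. They include P4ha2, which passed the filter on low counts through its LPS libraries, and without it 5 rose. Over all genes 30.1% passed, 15.3% higher and 14.8% lower. In cells of succinate mice 4 rose and 8 fell, 34.3% of the 35 genes, against 30.2% of all genes, 14.1% higher and 16.2% lower. At an unadjusted p below 0.05 there were 20 of the 35 genes in control mice (39.2% of all genes) and 16 in succinate mice (40% of all genes). The median log2 fold change of the 35 genes was -0.20 in control mice, against -0.0036 over all genes, and -0.17 in succinate mice, against -0.017. The median size of the change, without its sign, was 0.35 for the 35 genes and 0.35 for all genes in control mice. The median SE of a log2 value in control mice was 0.15 for the 35 genes and 0.19 for all genes. The part of this smaller SE in the share called was not tested. Each comparison was made within its own kind of mouse, so the 2 share no library, but all 12 libraries share 1 estimate of the spread.

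Tet1, Tet2, Kdm4a and Kdm5c rose with LPS in both kinds of mice. Kdm3a, Jmjd1c, Jmjd4, P4ha1, Plod1, Ogfod3 and Asph fell in both. The share of all genes that passed in the same direction in both comparisons is not given here. Tet3, Kdm6b, P4ha2 and Ogfod2 passed the threshold in control mice and not in succinate mice, and Kdm4b in succinate mice and not in control mice. For none of the 35 genes did the difference between the 2 LPS effects itself pass. In CPM, the LPS libraries of control mice did not overlap the unstimulated ones for 21 genes, 8 higher and 13 lower, and 45.5% of all genes tested separated in this way. In succinate mice this held for 16 genes, 6 higher and 10 lower, and for 41.4% of all genes. The 8 higher genes of control mice include P4ha2, which passed the filter on low counts through its LPS libraries. With the 7 libraries of the low class alone, which leave 1 unstimulated library per kind of mouse that is assumed to vary like the others, 8 of the 35 genes passed in each comparison, beside 2098 of all 15302 genes in control mice and 2220 in succinate mice. Those were Tet1, Tet2, Jmjd1c, Kdm4a, Kdm5c, Plod1 and Asph in both, Kdm6b in control mice and Kdm3a in succinate mice.

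**Figure D1:**
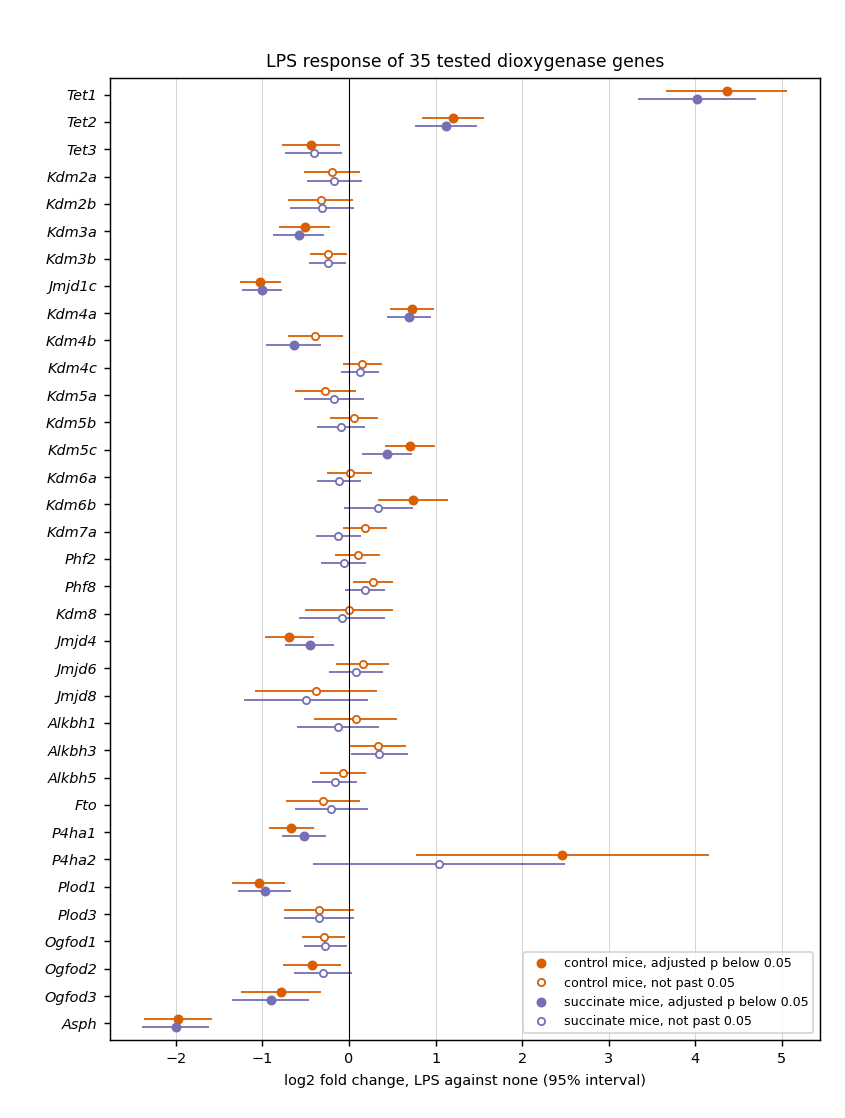
Log2 fold change with LPS (x axis, no unit) of the 35 tested genes (y axis, grouped by role) in cells of control mice and of succinate mice, as points with 95% intervals, filled where the adjusted p was below 0.05. Tet1 lies farthest to the right at 4.37 and 4.02, and Asph farthest to the left at -1.97 and -2.001.

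Tet1 had the highest log2 fold change with LPS of the 35 genes. Tet1 (ENSMUSG00000047146) was low without LPS, with 1.56, 1.68 and 1.98 CPM in control libraries, and had 26.95, 36.4 and 44.7 CPM with LPS. In succinate mice it had 1.06, 1.81 and 3.30 CPM without and 24.7, 36.6 and 39.7 CPM with LPS. All LPS libraries were above all unstimulated ones. The log2 fold change was 4.37 ± 0.33 (SE) in control mice, 20.6-fold (adjusted p = 1.21e-07), and 4.02 ± 0.32 in succinate mice, 16.3-fold (adjusted p = 2.2e-07). Tet1 encodes the TET enzyme best known from embryonic stem cells, with a CXXC domain that binds unmethylated CpG.

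Tet2 (ENSMUSG00000040943, chr3:133463679-133545139), whose loss is common in clonal haematopoiesis, had 82.0, 93.7 and 109 CPM in control libraries and 183, 198 and 273 CPM with LPS. In succinate mice it had 81.3, 104 and 114 CPM without and 195, 222 and 232 CPM with LPS, and the groups did not overlap. It rose 2.29-fold in control mice (log2 1.198 ± 0.17, adjusted p = 5.51e-05) and 2.17-fold in succinate mice (log2 1.12 ± 0.17, adjusted p = 0.000105). The Tet1 and Tet2 calls held in each of the 23 other settings, including every left-out library.

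Tet3 (ENSMUSG00000034832, chr6:83362373-83459084) had the opposite sign. Control libraries had 279, 289 and 291 CPM and fell to 186, 210 and 235 CPM with LPS (log2 -0.44 ± 0.16, adjusted p = 0.0438). In succinate mice it had 291, 299 and 408 CPM without and 198, 260 and 293 CPM with LPS, where 1 LPS library overlapped the unstimulated ones (log2 -0.41 ± 0.16, adjusted p = 0.0599). The control call was lost without control replicate 1, 2 or 3 (adjusted p = 0.0715, 0.13 and 0.132), without control LPS replicate 1 or 2 (0.193 and 0.128) and without succinate LPS replicate 2 (0.0586). It was also lost with the stricter filter (0.0588), RLE scaling (0.0511), the class covariate (0.0668) and the low library class (0.222). Tet3 had a negative log2 value in each of these.

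**Figure D2:**
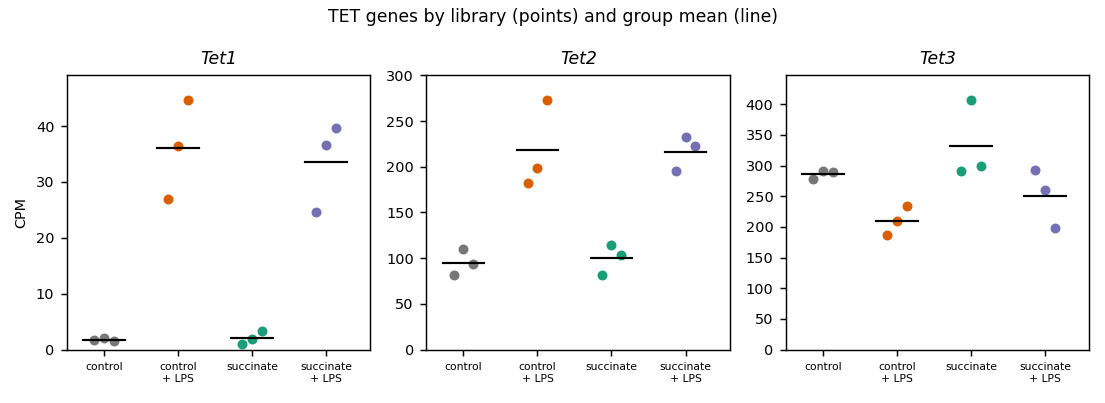
CPM (y axis, linear, from 0, own scale per gene) of Tet1, Tet2 and Tet3 in the 4 groups (x axis). Points are libraries and lines are means of 3. Tet1 and Tet2 are higher in all LPS libraries, and Tet3 is lower with LPS in control mice, from 279 to 291 CPM down to 186 to 235 CPM.

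Per kilobase of exon, Tet3 was the main TET transcript without LPS. It made up 74.96% ± 2.33 (SD, n = 3) of the summed TET level in control cells, Tet2 24.6% ± 2.303 and Tet1 0.49% ± 0.05. With LPS the shares were 45.5% ± 2.71 for Tet3, 46.2% ± 2.46 for Tet2 and 8.30% ± 0.83 for Tet1. Tet2 and Tet3 were then at 12.9 ± 2.88 and 12.6 ± 1.45 CPM per kb, a difference within the spread of the libraries. Succinate mice had shares of 76.6% ± 2.48, 22.8% ± 2.17 and 0.52% ± 0.31 for Tet3, Tet2 and Tet1 without LPS, and 49.7% ± 7.11, 43.0% ± 5.06 and 7.32% ± 2.05 with it. The summed TET level was 22.9 ± 1.18 CPM per kb in control, 27.9 ± 4.83 with LPS, 25.9 ± 4.73 in succinate and 30.0 ± 2.14 in succinate with LPS. These shares depend on the length used for each gene. By the longest annotated transcript, Tet2 had 10.4 and Tet3 26.2 CPM per kb in control cells, and 23.8 and 19.3 CPM per kb with LPS.

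**Figure D3:**
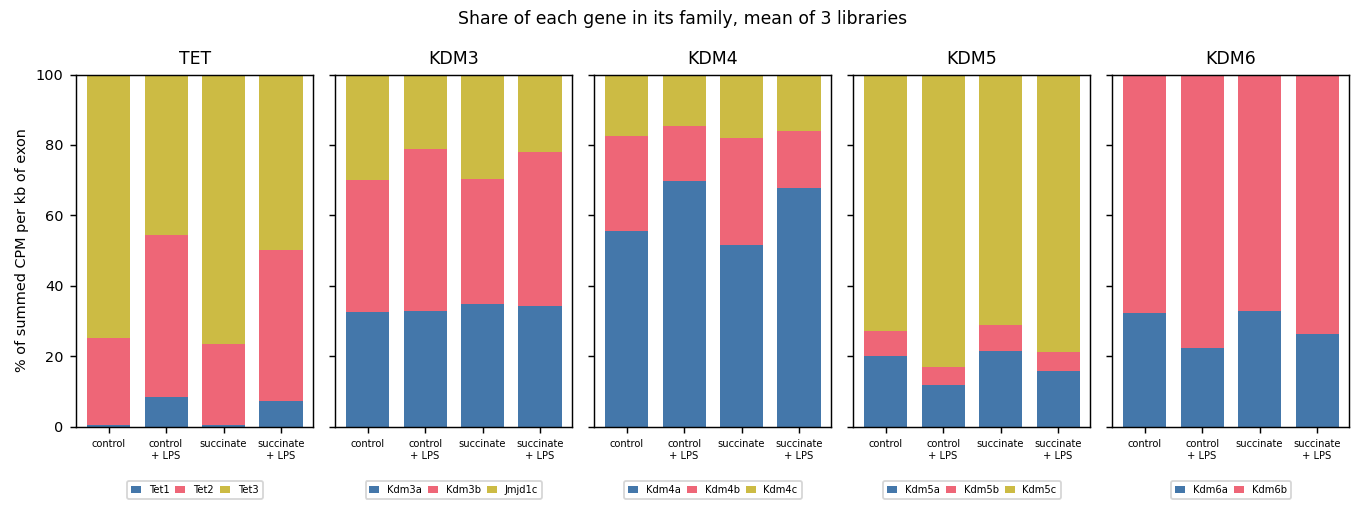
Share of each gene in the summed CPM per kb of exon of its family (y axis, percent) in the 4 groups (x axis), as means of 3 libraries, for the TET, KDM3, KDM4, KDM5 and KDM6 families. Tet3 falls from 74.96% to 45.5% of the TET sum with LPS in control mice.

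Among the 16 JmjC histone demethylase genes, 3 rose and 2 fell with LPS in control mice, and 2 rose and 3 fell in succinate mice, where 30.1% and 30.2% of all genes passed. The KDM4 enzymes act on methylated lysines 9 and 36 of histone H3. Kdm4a (ENSMUSG00000033326, chr4:118136957-118180043) had 112, 130 and 131 CPM in control libraries and 192, 202 and 223 CPM with LPS, a 1.65-fold rise (log2 0.73 ± 0.12, adjusted p = 0.000256). Succinate mice went from 103, 121 and 125 CPM to 166, 188 and 210 CPM (log2 0.69 ± 0.12, adjusted p = 0.00041). No library overlapped in either. Kdm4b, a paralog, moved the other way. It had 50.4, 52.1 and 72.4 CPM in succinate mice and 33.3, 38.2 and 40.8 CPM with LPS (log2 -0.64 ± 0.15, adjusted p = 0.00431). In control mice it had 45.8, 48.5 and 58.9 CPM without and 36.8, 38.0 and 42.1 CPM with LPS (log2 -0.39 ± 0.15, adjusted p = 0.0636). There, 5 of the 23 other settings called Kdm4b lower. The Kdm4b values of the LPS libraries lay below all others in both kinds of mice. In Kdm4c the log2 values were 0.15 ± 0.10 and 0.13 ± 0.10, and neither passed. Kdm4a made up 55.6% ± 2.303 of the KDM4 sum per kb in control cells and 69.7% ± 1.68 with LPS.

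Of the KDM5 genes, whose products remove methyl groups from lysine 4 of histone H3, Kdm5c (ENSMUSG00000025332, chrX:152233020-152274535) rose. It had 242, 277 and 292 CPM in control libraries and 389, 401 and 533 CPM with LPS (log2 0.71 ± 0.14, adjusted p = 0.00096). Succinate mice went from 260, 267 and 306 CPM to 336, 388 and 406 CPM (log2 0.44 ± 0.14, adjusted p = 0.0224), with no overlap of groups. The Kdm5c call in succinate mice was lost without succinate replicate 1 or 3 (adjusted p = 0.0676 and 0.0632) and without succinate LPS replicate 2 or 3 (0.0712 and 0.0808). Kdm5c had the highest level per kb of the 36 genes in every group, 38.0 ± 3.66 CPM per kb in control cells and 62.0 ± 11.2 with LPS, though its control level was within the spread of Plod3 at 34.4 ± 7.88. By the longest annotated transcript Plod3 came first in control cells, at 47.5 against 41.9 CPM per kb for Kdm5c, and in unstimulated cells of succinate mice, at 49.0 against 43.0. Kdm5a (log2 -0.27 ± 0.16 and -0.17 ± 0.16) and Kdm5b (0.06 ± 0.13 and -0.10 ± 0.13) did not pass in either kind of mouse.

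Kdm6b, also called JMJD3, is the lysine 27 demethylase known as an LPS-induced gene of macrophages. It had 146, 183 and 199 CPM in control libraries and 235, 283 and 364 CPM with LPS, a 1.67-fold rise (log2 0.74 ± 0.19, adjusted p = 0.00778), without overlap. Succinate mice had 158, 180 and 240 CPM without and 205, 238 and 288 CPM with LPS, where the groups overlapped (log2 0.34 ± 0.19, adjusted p = 0.197). The difference between the effects was -0.40 ± 0.27 on the log2 scale, with a 95% interval from -0.97 to 0.17 (adjusted p = 1, edgeR), so the data do not show that Kdm6b responded differently in succinate mice. Without the filter on low counts Kdm6b passed in succinate mice too (log2 0.37, adjusted p = 0.0391), as it did with the library class as a covariate (log2 0.57, adjusted p = 0.0337). An antisense gene, Kdm6bos, overlaps 286 exonic bases and had 6 to 22 counts per library. Kdm6a, the X-linked paralog, had log2 values of 0.0063 ± 0.12 and -0.11 ± 0.12. The sign of the first was reversed in 4 of the 23 other settings.

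Jmjd1c and Kdm3a, of the KDM3 group of lysine 9 demethylase genes, fell. Jmjd1c (ENSMUSG00000037876, chr10:67096125-67256326) had 213, 215 and 225 CPM in control libraries and 103, 107 and 111 CPM with LPS (log2 -1.02 ± 0.11, adjusted p = 3.95e-06). Libraries of succinate mice had 199, 248 and 254 CPM without and 108, 118 and 124 CPM with LPS (log2 -1.005 ± 0.11, adjusted p = 4.99e-06). Each LPS library was well below each unstimulated one. Kdm3a, known as a hypoxia-induced gene, fell from 102, 112 and 115 CPM to 74.6, 75.1 and 80.8 CPM in control mice (log2 -0.51 ± 0.14, adjusted p = 0.0105). In succinate mice Kdm3a fell from 102, 136 and 141 CPM to 69.9, 88.5 and 94.9 CPM (log2 -0.58 ± 0.14, adjusted p = 0.00443). Kdm3b had log2 values of -0.24 ± 0.10 and -0.25 ± 0.10 that missed the threshold (adjusted p = 0.0867 and 0.0794). With the low library class alone Kdm3a in control mice had a log2 value of -0.54 and did not pass (adjusted p = 0.11).

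The other JmjC demethylase genes did not pass in either LPS comparison as fitted here. Kdm2a and Kdm2b, lysine 36 demethylases, had log2 values of -0.20 ± 0.15 and -0.33 ± 0.17 in control mice and -0.17 ± 0.15 and -0.31 ± 0.17 in succinate mice. Phf8 had the lowest adjusted p of the PHD finger group, 0.0643 in control mice (log2 0.28 ± 0.11), and 0.21 in succinate mice (0.18 ± 0.11). In control mice 6 of the 23 other settings called Phf8 higher. Phf2 and Kdm7a had log2 values of 0.10 ± 0.12 and 0.18 ± 0.12 in control mice, and -0.06 ± 0.12 and -0.12 ± 0.12 in succinate mice.

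Of the 4 small JmjC proteins, Jmjd4, which hydroxylates a translation termination factor, fell. It had 25.3, 25.4 and 29.1 CPM in control libraries and 15.1, 15.3 and 19.1 CPM with LPS (log2 -0.69 ± 0.13, adjusted p = 0.00095). Succinate mice had 19.4, 20.9 and 22.9 CPM without and 15.1, 15.5 and 15.6 CPM with LPS (log2 -0.45 ± 0.13, adjusted p = 0.0175). Groups did not overlap in either. The Jmjd4 call in succinate mice was lost without succinate replicate 3 (adjusted p = 0.0615) and without succinate LPS replicate 2 or 3 (0.0555 and 0.0515). It was also lost with no filter (0.0878), the class covariate (0.0524), the low library class (0.338) and only the groups compared (0.0536). Jmjd6 and Kdm8 had log2 values between -0.08 and 0.16 with LPS, and Jmjd8, at 0.8 to 2.4 CPM, had -0.38 ± 0.33 and -0.50 ± 0.34. Jmjd8 shares 1148 exonic bases with genes on the opposite strand, among them Stub1 with 490 to 629 counts per library. Jmjd4 shares 307 exonic bases with Snap47 on the opposite strand, which had 23 to 137 counts per library. How strand was handled is not known here.

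None of the 4 AlkB family genes passed with LPS in the fit reported here. Alkbh5, a demethylase of N6-methyladenosine in RNA, had 177, 203 and 215 CPM in control libraries and 168, 182 and 216 CPM with LPS (log2 -0.07 ± 0.12). These groups overlapped. Fto, the other demethylase of that mark, had log2 values of -0.30 ± 0.20 and -0.21 ± 0.20, at 1.81 ± 0.35 CPM per kb in control cells against 33.1 ± 3.27 for Alkbh5. Alkbh3, which repairs alkylated bases, had 0.33 ± 0.15 and 0.35 ± 0.15 (adjusted p = 0.124 and 0.106). The value for Alkbh1 was 0.08 ± 0.22 in control mice and -0.13 ± 0.22 in succinate mice, where the library class as a covariate gave Alkbh1 -0.49 and a call (adjusted p = 0.0282).

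Collagen hydroxylases work in the endoplasmic reticulum, on proline through the P4HA subunits and on lysine through the PLOD enzymes. P4ha1 (ENSMUSG00000019916, chr10:59323296-59373304) had 49.9, 57.0 and 59.5 CPM in control libraries and 29.0, 37.9 and 38.0 CPM with LPS (log2 -0.67 ± 0.12, adjusted p = 0.000602). P4ha1 fell in succinate mice from 52.0, 54.1 and 57.4 CPM to 37.6, 37.9 and 38.3 CPM (log2 -0.52 ± 0.12, adjusted p = 0.00389). Plod1 (ENSMUSG00000019055, chr4:147909753-147936767) fell from 49.3, 60.3 and 63.0 CPM to 27.4, 27.6 and 28.6 CPM in control mice (log2 -1.05 ± 0.14, adjusted p = 4.95e-05). Plod1 in succinate mice had 42.9, 51.5 and 62.1 CPM without and 23.5, 27.2 and 28.9 CPM with LPS (log2 -0.98 ± 0.14, adjusted p = 9.67e-05). Neither gene had overlapping groups. Plod3, the most abundant PLOD transcript per kb, had -0.35 ± 0.19 in both kinds of mice and did not pass (adjusted p = 0.2 and 0.195).

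P4ha2 was barely measured, at 0 to 20 counts per library, and it passed the filter through its LPS libraries. Control libraries had 0, 1 and 6 counts and control LPS libraries 7, 15 and 16, and the log2 value of P4ha2 was 2.46 ± 0.79 (adjusted p = 0.0252). A gene kept through the group where it is high is chosen in part by that difference, so this call supports nothing by itself. With no filter the P4ha2 value was also 2.46 (adjusted p = 0.00899). Succinate mice had 5, 5 and 8 counts without and 7, 13 and 20 with LPS, where the CPM overlapped (log2 1.04 ± 0.68, adjusted p = 0.268). The P4ha2 value in control mice was 4.41 without control replicate 1. The call was lost without control replicate 2 or 3 (adjusted p = 0.0992 and 0.0855) and without control LPS replicate 1 or 3 (0.0664 and 0.0703), and the low library class gave 0.99 (adjusted p = 0.579). P4ha1 made up 98.6% to 99.8% of the P4HA sum per kb on average in the 4 groups.

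Of the remaining 4 protein hydroxylases, 3 fell with LPS in control mice and 2 in succinate mice. Over all genes 14.8% and 16.2% were lower in these comparisons. Asph (ENSMUSG00000028207, chr4:9448069-9669344), which hydroxylates aspartate and asparagine in EGF-like domains, had 52.3, 56.4 and 58.1 CPM in control libraries and 9.28, 15.6 and 17.5 CPM with LPS, 3.93-fold lower (log2 -1.97 ± 0.18, adjusted p = 9.22e-07). Asph in succinate mice had 46.2, 49.9 and 52.8 CPM without and 11.2, 12.01 and 13.9 CPM with LPS, 4.00-fold lower (log2 -2.001 ± 0.18, adjusted p = 9.07e-07). Asph had the lowest log2 value of the 35 genes in both. It shares 2368 exonic bases with Clvs1 and Gm25677 on the opposite strand, of which Clvs1 had 0 counts in all libraries. Ogfod3 fell from 3.74, 4.40 and 4.51 CPM to 2.13, 2.34 and 2.88 CPM in control mice (log2 -0.78 ± 0.22, adjusted p = 0.0124). In succinate mice Ogfod3 fell from 4.82, 4.90 and 5.63 CPM to 2.41, 2.82 and 2.96 CPM (log2 -0.91 ± 0.21, adjusted p = 0.00406). Ogfod3 shares 223 exonic bases with Hexdc on the opposite strand, which had 24 to 54 counts per library. The Ogfod3 call in control mice was lost without control replicate 2 (adjusted p = 0.0536) and without control LPS replicate 1 or 2 (0.0651 and 0.0534), with no filter (0.0549) and with the low library class (0.0921). That of Ogfod3 in succinate mice was lost with the low library class (adjusted p = 0.114).

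Ogfod2 was just past the threshold in control mice, from 15.3, 17.4 and 19.0 CPM to 11.7, 13.3 and 13.4 CPM (log2 -0.43 ± 0.16, adjusted p = 0.0498), and not in succinate mice (-0.30 ± 0.15, adjusted p = 0.161). The Ogfod2 call was lost without any 1 of the 6 control libraries, with control replicate 2 giving the highest adjusted p, 0.215, and without succinate replicate 2 (0.056) or succinate LPS replicate 2 or 3 (0.0595 and 0.0542). It was also lost with no filter (0.11), the stricter filter (0.0639), RLE (0.0536), robust fitting (0.0502), the low library class (0.376), limma-voom (0.0545) and DESeq2 (0.0544), and Ogfod2 was called in 7 of 23 alternatives. Ogfod1, which hydroxylates a ribosomal protein, had log2 values of -0.29 ± 0.12 and -0.27 ± 0.12 and missed the threshold (adjusted p = 0.0714 and 0.0905).

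**Figure D4:**
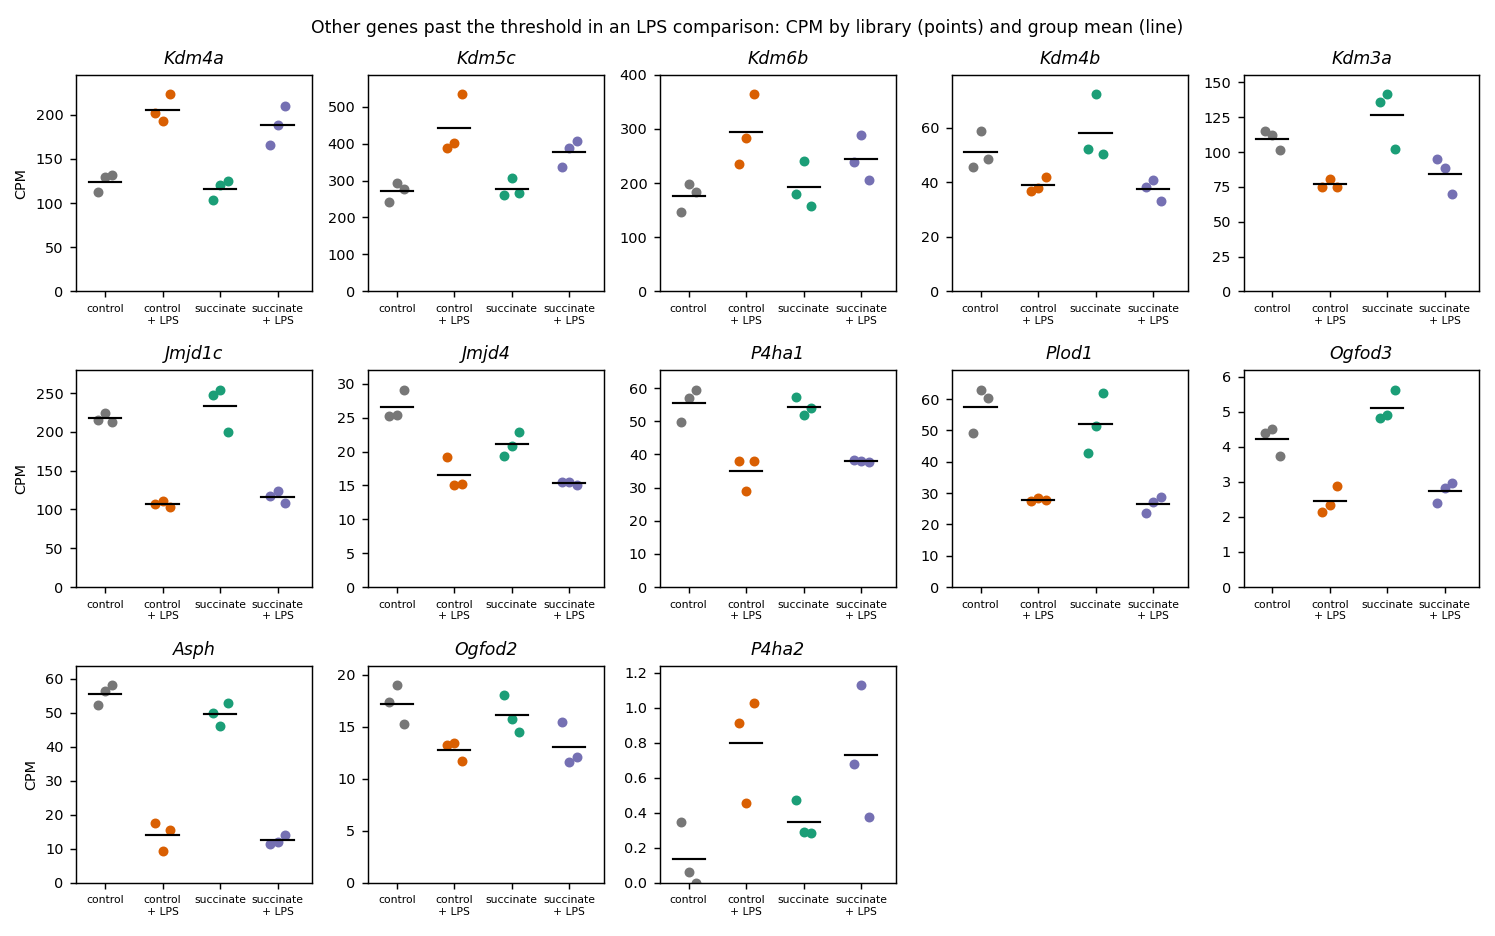
CPM (y axis, linear, from 0, own scale per gene) in the 4 groups (x axis) of the 13 genes outside the TET family that passed the threshold in an LPS comparison. Points are libraries and lines are means of 3. Asph falls from 52.3 to 58.1 CPM to 9.28 to 17.5 CPM in control mice, and the P4ha2 points rest on 0 to 20 counts.

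Succinate given to the mice was followed by no called change in any of the 35 genes. Between unstimulated cells of succinate and control mice 0 of 35 genes passed, as did 0 of all 14324 genes (0%). At an unadjusted p below 0.05 there were 1 of the 35 and 535 of all genes (3.73%). After LPS 0 of 35 genes passed, with 9 of all genes (0.0628%), and unadjusted 1 of the 35 and 1680 of all genes (11.7%). The count of 9 moved with the settings, from 0 with library size alone to 694 without the filter on low counts. It was 339 of 9734 genes with DESeq2, 34 with limma-voom and 190 with the library class as a covariate. With 1 library left out it was 0 to 197, the highest without succinate LPS replicate 3 and then 79 without control LPS replicate 3. It was 25 and 27 without succinate replicate 1 and 3, 3 without control replicate 1 or 2, and 0 without control replicate 3, control LPS replicate 1 or 2, or succinate LPS replicate 1 or 2. For the difference between the 2 LPS effects the counts were 0 of 35 and 0% of all genes, and unadjusted 0 of 35 and 560 of all genes (3.91%). DESeq2 and limma-voom also called 0 of these genes in the 3 comparisons, and so did each alternative that was run. For succinate with LPS, DESeq2 tested 32 of them.

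Intervals were narrow for most genes. The 95% interval of the succinate effect lay within 1.5-fold for 28 of the 35 genes without LPS and for 28 with LPS, and within 2-fold for 33 in each. The intervals that reached past 2-fold were those of Tet1 and P4ha2 without LPS and of Jmjd8 and P4ha2 with LPS. For the difference between the LPS effects, 21 intervals lay within 1.5-fold and 32 within 2-fold, and those of Tet1, Jmjd8 and P4ha2 went past it. The median SE of a log2 value over the 35 genes was 0.15 for each succinate comparison and 0.21 for the difference.

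Tet2 had succinate effects of 0.07 ± 0.16 on the log2 scale without LPS (95% interval -0.29 to 0.42) and -0.01 ± 0.16 with it (-0.36 to 0.34). For Tet3 the values were 0.22 ± 0.16 (-0.12 to 0.55) and 0.25 ± 0.16 (-0.08 to 0.58). Its 3 succinate libraries lay above the 3 control ones without LPS, the lowest of them by under 1 CPM. For Tet1 they were 0.24 ± 0.37 (-0.55 to 1.04) and -0.10 ± 0.26 (-0.65 to 0.45). Kdm5c had 0.04 ± 0.14 without and -0.23 ± 0.14 with LPS, and Kdm6b 0.13 ± 0.19 and -0.27 ± 0.19.

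In the unstimulated comparison the CPM of the groups did not overlap for 3 genes, Tet3 and Ogfod3 higher and Jmjd4 lower in succinate mice, where 7.92% of all genes separated. Jmjd4 was the 1 gene with an unadjusted p below 0.05, at 19.4, 20.9 and 22.9 CPM against 25.3, 25.4 and 29.1 CPM (log2 -0.34 ± 0.13, adjusted p = 0.958, edgeR). With LPS the groups separated for 2 genes, Jmjd6 higher and Kdm7a lower, against 17.1% of all genes. Kdm7a, a demethylase of lysines 9 and 27 of histone H3, had 123, 128 and 134 CPM against 137, 147 and 181 CPM (log2 -0.27 ± 0.12, adjusted p = 0.402, edgeR). Neither Jmjd4 nor Kdm7a passed after adjustment.

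**Figure D5:**
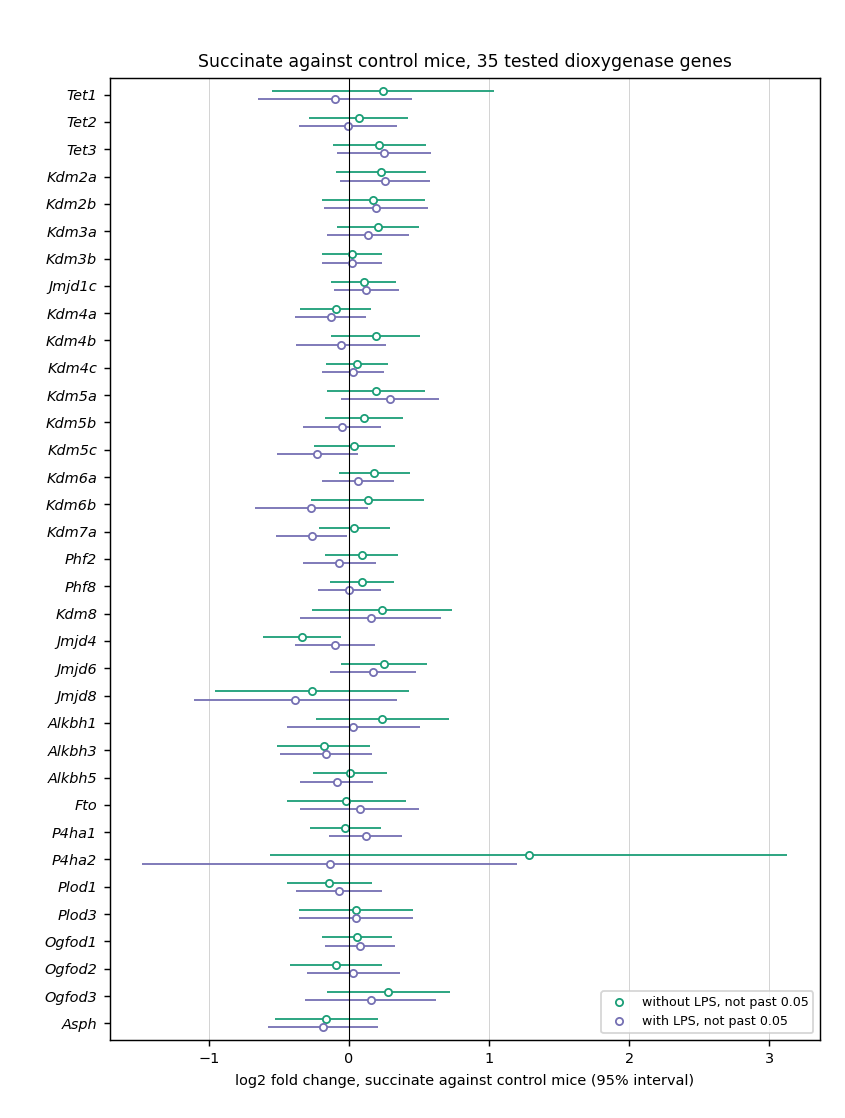
Log2 fold change between succinate and control mice (x axis, no unit) of the 35 tested genes (y axis), without and with LPS, as points with 95% intervals. No point passed an adjusted p of 0.05, and the widest intervals are those of P4ha2.

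Other genes of the same chemistry were counted from lists drawn up with earlier results known. Of 17 tested further 2-oxoglutarate dioxygenase genes, 1 rose and 2 fell with LPS in control mice and 2 rose and 2 fell in succinate mice. For this and the lists that follow, the shares over all genes are the 15.3% higher and 14.8% lower of control mice and the 14.1% and 16.2% of succinate mice. Riox2, a ribosomal histidine hydroxylase, rose from 17.1 ± 2.27 to 39.9 ± 0.75 CPM in control mice (log2 1.22 ± 0.13, adjusted p = 4.93e-06). Egln3, a prolyl hydroxylase of HIF, fell there from 12.8 ± 1.1 to 7.28 ± 1.27 CPM (log2 -0.82 ± 0.24, adjusted p = 0.0155). P3h1, a collagen prolyl 3-hydroxylase, also fell (log2 -0.70 ± 0.24, adjusted p = 0.0347).

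Of 27 tested genes for the supply and use of succinate and 2-oxoglutarate, 2 rose and 4 fell with LPS in each kind of mouse, and Sucnr1, the succinate receptor gene, had too few counts to test. Acod1, which makes itaconate, went from 165 ± 26.8 to 4302 ± 517 CPM in control mice (log2 4.70 ± 0.23, adjusted p = 2.33e-09), and Dld, the shared subunit of 2-oxoacid dehydrogenases, from 104 ± 3.68 to 177 ± 7.81 CPM (log2 0.77 ± 0.10, adjusted p = 1.85e-05). Got1, a transaminase that links aspartate and 2-oxoglutarate, fell from 169 ± 12.8 to 44.4 ± 0.48 CPM (log2 -1.93 ± 0.18, adjusted p = 1.14e-06). Glud1, which makes 2-oxoglutarate from glutamate, fell from 689.6 ± 70.1 to 345 ± 23.7 CPM (log2 -0.997 ± 0.12, adjusted p = 1.18e-05), and D2hgdh fell by 0.90 ± 0.20 on the log2 scale.

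The enzymes that lay down or read the marks moved as follows with LPS. Of 20 histone methyltransferase genes, 1 rose and 3 fell in control mice and 0 rose and 5 fell in succinate mice, where 30.1% and 30.2% of all genes passed. Dot1l, the lysine 79 enzyme, had a log2 value of 0.34 ± 0.11, and Ehmt1, Kmt2c and Setd1a each -0.45, with SE of 0.10 to 0.15. Kdm1a, 1 of the 2 flavin-dependent demethylase genes, fell in both (log2 -0.48 ± 0.14 and -0.69 ± 0.14). Of 8 genes of DNA methylation and base excision, 2 rose and 1 fell in control mice and 1 rose and 1 fell in succinate mice. Dnmt1, the maintenance methyltransferase, fell from 518 ± 21.1 to 333 ± 32.4 CPM in control mice (log2 -0.64 ± 0.12, adjusted p = 0.00078), while Tdg, the glycosylase that removes the oxidised bases TET enzymes make, rose (log2 0.47 ± 0.11, adjusted p = 0.00411), as did Ogt (0.39 ± 0.13, adjusted p = 0.0297).

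Of 11 genes for writers and readers of N6-methyladenosine, 2 rose and 1 fell in control mice and 1 rose and 1 fell in succinate mice. The 3 were Zc3h13 (log2 0.68 ± 0.12), Wtap (0.36 ± 0.12) and Ythdf3 (-0.39 ± 0.11). Of 7 tested collagen and collagen-processing genes, 2 rose and 2 fell in control mice and 2 rose and 1 fell in succinate mice. Colgalt1, a collagen galactosyltransferase, rose from 54.7 ± 5.29 to 126 ± 7.53 CPM and P4hb, the shared beta subunit of prolyl 4-hydroxylase, fell from 626 ± 39.4 to 480.1 ± 57.5 CPM in control mice. Col4a2 and Col4a1, which lie side by side in the genome, had log2 values of 3.88 ± 0.41 and -1.75 ± 0.32. None of these lists had a gene called in either succinate comparison or in the difference between LPS effects.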

How the data were processed

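RNA was sequenced from 12 libraries in 4 groups of 3, taken from the sample titles. The deposited files hold raw counts, whole numbers of reads for each gene. Trim Galore and mm10 are named in the submitters' processing notes for what the authors did before counting. No aligner, counter, gene annotation or strand setting is given in the sources used here, so reads of overlapping genes may be split in an unknown way.

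The test was edgeR 4.0.16's quasi-likelihood F-test, run in R 4.3.3. The filterByExpr function left 14324 genes, libraries were scaled by TMM, and 1 model with a mean for each of the 4 groups used all 12 libraries, with a common biological coefficient of variation of 0.167. There were 5 contrasts: LPS in control mice, LPS in succinate mice, succinate without LPS, succinate with LPS, and the interaction of both factors. Genes count as called where the p adjusted by Benjamini and Hochberg was below 0.05, and errors of log2 fold changes are standard errors. CPM values use TMM-scaled library sizes. The script was tested on simulated counts.

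Total counts were 15975882 to 18306747 per library, and no 2 libraries of a group agreed within sampling noise. Exon lengths and gene coordinates came from GENCODE M21 (GRCm38), which holds 54409 of the 54532 identifiers. Promoter windows came from RefSeq, and 8 of the 36 genes are named without one. The search of both strands used the AP-1 letters TGANTCA, the cores ACGTG and GAAANNGAAA, and the NF-kB consensus.

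The 36 genes, the gene lists and the library class genes were chosen with earlier results of these data known. Every one of the 36 genes could be named, and from each list up to 3 called genes per direction with the smallest p in control mice. Alternatives were no filter, a filter of at least 1 CPM in at least 6 libraries, RLE scaling, library size alone, robust fitting, a replicate block, library class, only the groups compared, each library left out, limma-voom (limma 3.58.1), DESeq2 1.42.0 and transcript lengths. The TET shares by longest transcript were added after the data were seen.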

Additional observations from a re-analysis of the deposited data

How the results depend on the processing

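In control mice the 23 alternatives called between 8 and 18 of the 35 genes with LPS, beside 2098 to 4756 of all genes (2220 to 4864 in succinate mice). The low library class alone gave 8, of which 3 fell, and in succinate mice it gave 4 that fell. That fit has 5 libraries fewer. Leaving out 1 library at a time gave 11 to 16 called genes in control mice (5 to 7 higher, 6 to 11 lower), beside 3347 to 4547 of all genes, and 10 to 13 in succinate mice (3 to 4 higher, 7 to 10 lower), beside 3374 to 4387. All comparisons of succinate, and the difference between LPS effects, had 0 of the genes described here called in every alternative run. Not all of them were tested in each, as DESeq2 tested 32 for succinate with LPS and the stricter filter kept 34. Over all genes the count was 0 to 72 for succinate without LPS and 0 to 694 with LPS. For the difference it was 0 to 71, and the highest count each time came without the filter. Tet1, Tet2, Jmjd1c, Kdm4a, Plod1 and Asph were called in both kinds of mice in all 23, Kdm5c and Kdm6b in all 23 in control mice, and Kdm3a in all 23 in succinate mice. Some genes not called in the reported fit passed in an alternative. In control mice these were Phf8 in 6, Kdm4b in 5, Ogfod1 in 3, Kdm3b in 2, and Kdm2b, Kdm5a and Plod3 in 1 each. In succinate mice they were Tet3 in 4, Kdm6b in 2, and Kdm3b and Alkbh1 in 1 each. With library size alone 18 of the 35 genes passed in control mice, 12 of them lower, beside 4516 of all genes, 2651 of them lower. The median of all genes there moved to -0.088. Scaling by library size alone moved the median of all genes to 0.11 between succinate and control mice with LPS.

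The labels number the replicates alike in each group. Of 18 same-numbered pairs, the correlation of deviations from the group means ran from -0.13 to 0.38, with 7 over 0.1. Among pairs with different numbers it ran from -0.33 to 0.29. Of the 12 libraries, 8 correlated best with their own number. Whether the numbers mark a pairing was not tested, and the reported fit had no replicate block. With the replicate block, 7 genes were higher and 11 lower with LPS in control mice, 4 higher and 8 lower in succinate mice. In the other comparisons 0 of the 35 passed. Kdm4b, Phf8 and Ogfod1 were the genes that the block added in control mice. Over all genes the block called 4756 with LPS in control mice and 4864 in succinate mice, against 4306 and 4331 without it. For succinate with LPS it called 77, against 9.

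Changes of sign occurred among genes that had not passed in the reported fit, and the cause was not tested. In control mice, Kdm6a had log2 values of -0.0072 (no filter), -0.077 (library size alone), -0.026 (class covariate) and -0.010 (without control LPS replicate 2), up to 0.063 without 1 library. Kdm8 had 0.029 (stricter filter), 0.0057 (RLE), 0.020 (limma-voom), 0.0050 (DESeq2), and 0.18, 0.055 and 0.13 without control replicate 1, control replicate 3 and control LPS replicate 1. Kdm5b had -0.023 with library size alone. Alkbh1 had -0.0063 (library size alone), -0.096 (class covariate), -0.18 (low class), and -0.091 and -0.00059 without control or control LPS replicate 2, up to 0.36 without 1 library. Alkbh5 had 0.0099 (low class), and 0.014 and 0.037 without control replicate 2 or control LPS replicate 1, down to -0.15 without 1 library. In succinate mice the class covariate gave Phf2 0.077, Jmjd6 -0.025, Fto 0.066 and Plod3 0.039. The low class gave Kdm2b 0.057, Phf2 0.23, Kdm8 0.081, Jmjd6 -0.17, Jmjd8 0.027, Fto 0.23 and Plod3 0.012. Alkbh1 had 0.053 without succinate replicate 1 and as low as -0.23 without another library. Without succinate replicate 2, Kdm5b had 0.032, Phf2 0.062 and Kdm8 0.11, and without replicate 3 Jmjd6 had -0.065. Without 1 library Kdm8 went as low as -0.20 and Jmjd6 as high as 0.24.

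Depth limits P4ha2 and Plod2, which had at most 20 counts per library.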
